A study of Mus musculus with 10 samples.

Results

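Fatty acid oxidation in the liver was followed through 38 genes, chosen by name as enzymes, carriers and electron acceptors of the carnitine shuttle and of mitochondrial and peroxisomal β-oxidation. All 38 were found among the 23420 gene symbols counted, and all 38 passed the filter on low counts. The 10 RNA-seq libraries came from whole livers of male C57BL/6 mice aged 4 months, and the labels name no genetic change or drug in either group. The 5 starved mice went without food for 48 hours and had water throughout, and the 5 fed mice ate standard chow over the same 48 hours. Each library is 1 mouse, called here by its group and number, and the series belongs to a study of histone lysine β-hydroxybutyrylation, a mark tied to the ketone bodies made in starvation. Because the samples are bulk tissue, fewer cells of a type and less RNA per cell cannot be told apart.

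A fatty acid that reaches the hepatocyte is first joined to coenzyme A. Long chains then cross the mitochondrial membranes as carnitine esters and are shortened in repeated rounds of dehydrogenation, hydration, a further dehydrogenation and thiolysis, with electrons passed through the electron transfer flavoprotein to the respiratory chain. Peroxisomes hold a parallel set of enzymes, encoded by other genes, that shortens very long and branched chains. During fasting the liver burns fatty acids released from adipose tissue, and the fatty acid receptor PPARA is a known activator of many of these genes.

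Gene-assigned reads numbered 18197194 to 28065220 per starved library and 22978413 to 29941358 per fed library. Levels are given as CPM, the read count of a gene relative to all gene reads of its library, after scaling by TMM (trimmed mean of M values), which evens out differences in composition. All 8 hepatocyte markers examined were present, 2 rose and 3 fell, and their summed level was 131000 to 199000 CPM in starved and 118000 to 164000 CPM in fed livers. Markers of Kupffer cells, the resident macrophages, summed to 139 to 298 CPM in starved and 364 to 596 CPM in fed livers, and 6 of 7 fell. Markers of neutrophils summed to 2.26 to 17.9 CPM in starved and 1.48 to 3.41 CPM in fed livers. That sum is almost all S100a8 and S100a9, which both rose from low levels (log2 fold change 1.96 ± 0.45 SE and 2.04 ± 0.48 SE). Ngp and Camp were too low to test. Fat cell markers summed to 0.0534 to 5.17 CPM in starved and 0.103 to 20.4 CPM in fed livers. Bile duct markers summed to 15 to 40.6 CPM in starved and 46.3 to 57.2 CPM in fed livers, mostly Spp1 (24.2 ± 11.1 CPM in starved and 47.2 ± 5.06 CPM in fed livers), the 1 of 5 that fell, while the other 4 were not called. Of 5 endothelial markers 1 rose and 3 fell, and of 5 stellate cell markers 1 rose and 0 fell (1 and 4 with library totals alone as scaling, 1 and 1 on leaving out starved libraries 2 and 4). Skeletal muscle markers summed to 0.0389 to 0.295 CPM in starved and 0.0331 to 0.14 CPM in fed livers. Of the 4 red cell markers, Hba-a1, Hba-a2 and Hbb-b1 were at 0 in every library, and why they were at 0 was not tested. The sum of the list is therefore Alas2 alone, with 8.35 to 25.1 CPM in starved and 26.8 to 44.9 CPM in fed livers. Alas2 fell (log2 fold change -1.38 ± 0.28 SE). The part these markers play in the results below was not tested. Starved library 2 stood apart, with a median correlation of 0.945 to the other starved libraries across genes, against 0.976 to 0.984 for the other starved and 0.992 to 0.993 for the fed libraries. Starved library 4 was the next lowest, so results are also given without starved libraries 2 and 4.

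In starved liver 18 of the 38 genes rose and 1 fell, at an adjusted p under 0.05 (a quasi-likelihood test in edgeR, with Benjamini-Hochberg adjustment across the whole table). Among all 12796 genes tested, 38.6% were called: 18.6% were higher and 20% lower, set against 47.4% higher and 2.63% lower among the 38. The median log2 fold change of the 38 was 0.33, beside 0.0035 over all genes tested. The 38 were chosen with earlier results of these data known. Their shares and medians beside those of all genes are therefore a description and not a test. Without starved libraries 2 and 4, 24 of the 38 rose and 0 fell (median 0.48), where 20.2% of all genes were higher and 20.7% lower. Starved library 2 was the lowest starved library for 25 of the 38, so leaving it out favours rises. Leaving out starved library 2 alone gave 24 rises, and leaving out starved library 4 alone gave 18. The largest change was the 2.88-fold rise of Ehhadh, and 3 genes changed more than 2-fold. In 10 of the 38 genes every starved library lay above every fed library, and in 0 every starved library lay below, where the groups did so for 13.2% and 16.7% of all genes tested.

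**Figure D1:**
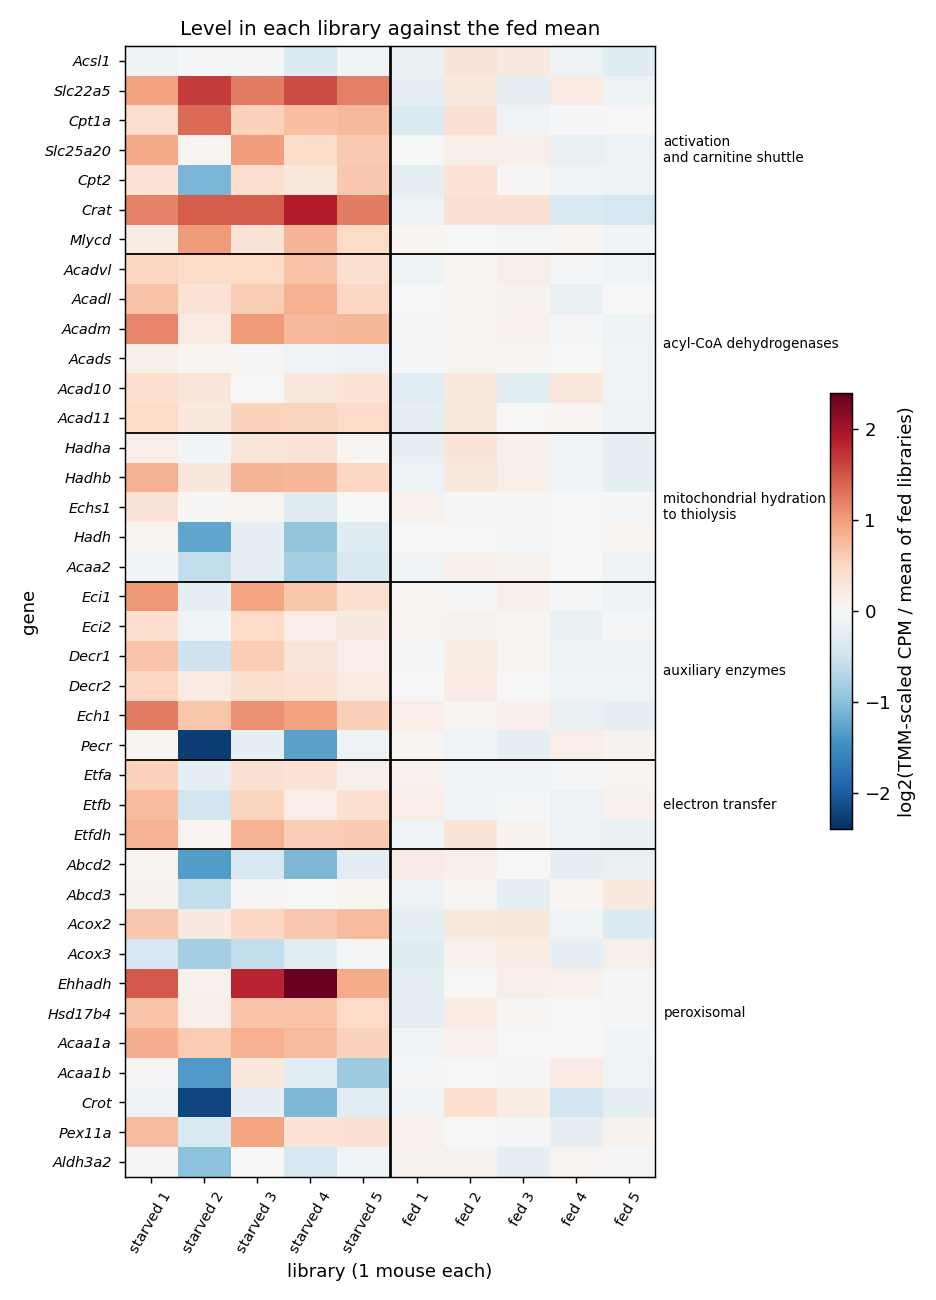
Level of each of the 38 genes (rows, in the order of their roles) in each library (columns, starved left of the line and fed right of it), as the log2 ratio of TMM-scaled CPM to the mean of the 5 fed libraries. The rows of Slc22a5, Crat and Acaa1a are above the fed mean in all 5 starved libraries, while starved library 2 is pale or blue in many rows where starved libraries 1 and 3 are red.

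Of 7 genes of activation and the shuttle, 5 rose and 0 fell (median log2 fold change 0.64). Slc22a5, the plasma membrane carrier that brings carnitine into the cell, stood at 54.7, 88.7, 65, 82.1 and 64.4 CPM in starved libraries 1 to 5 and at 24.5, 32.9, 24.3, 32 and 25.8 CPM in fed libraries 1 to 5. Every starved library lay above every fed library. The rise was 2.54-fold (log2 fold change 1.35 ± 0.15 SE, adjusted p = 0.000104, edgeR). Of the 50-base stretches of its longest coding transcript, 27.1% also occur in transcripts of other genes, mostly Slc22a21, so its count is uncertain.

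Crat, the carnitine acetyltransferase that exchanges acetyl groups between coenzyme A and carnitine, had 75.6, 90.6, 90.9, 122 and 77.9 CPM in starved libraries and 30.1, 42.6, 42.6, 25.6 and 24.7 CPM in fed libraries. The groups did not overlap, and the log2 fold change was 1.46 ± 0.19 (adjusted p = 0.000262, edgeR). Cpt1a, the carnitine palmitoyltransferase of the outer membrane and the controlled entry step, had 514, 974, 559, 628 and 655 CPM in starved libraries and 304, 487, 358, 373 and 378 CPM in fed libraries. The lowest starved value was above the highest fed value, by a narrow margin, and starved library 2 was far above the rest. Its rise was 0.81 ± 0.18 on the log2 scale (adjusted p = 0.0054, edgeR) and 0.62 without starved libraries 2 and 4. Mlycd, which breaks down malonyl-CoA, the inhibitor of that step, averaged 167 ± 42.1 CPM in starved and 110 ± 3.54 CPM in fed livers (SD, n = 5 each). Its starved values ran from 125 to 225 CPM and its fed values from 105 to 114 CPM. The log2 fold change of Mlycd was 0.60 ± 0.15 (adjusted p = 0.0102, edgeR) and, leaving out starved libraries 2 and 4, 0.34 (adjusted p = 0.00789, edgeR).

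Slc25a20, the inner membrane carrier that trades acylcarnitine for carnitine, had 285, 160, 303, 206 and 233 CPM in starved libraries and 151, 168, 167, 135 and 138 CPM in fed libraries. Starved library 2 lay inside the fed range and the other 4 starved libraries above it. The rise was 0.64 ± 0.17 (adjusted p = 0.00992, edgeR). Cpt2, the inner membrane transferase that hands the chain back to coenzyme A, had 97.1, 35.8, 101, 92 and 119 CPM in starved libraries and 66, 96.3, 78.2, 72.2 and 70.7 CPM in fed libraries, with no call (adjusted p = 0.519, edgeR). It was called without starved library 2 and without starved libraries 2 and 4 (log2 fold change 0.48). Acsl1, the main long-chain acyl-CoA synthetase of liver, averaged 843 ± 65.8 CPM in starved and 913 ± 167 CPM in fed livers (log2 fold change -0.12 ± 0.14, adjusted p = 0.529, edgeR).

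**Figure D2:**
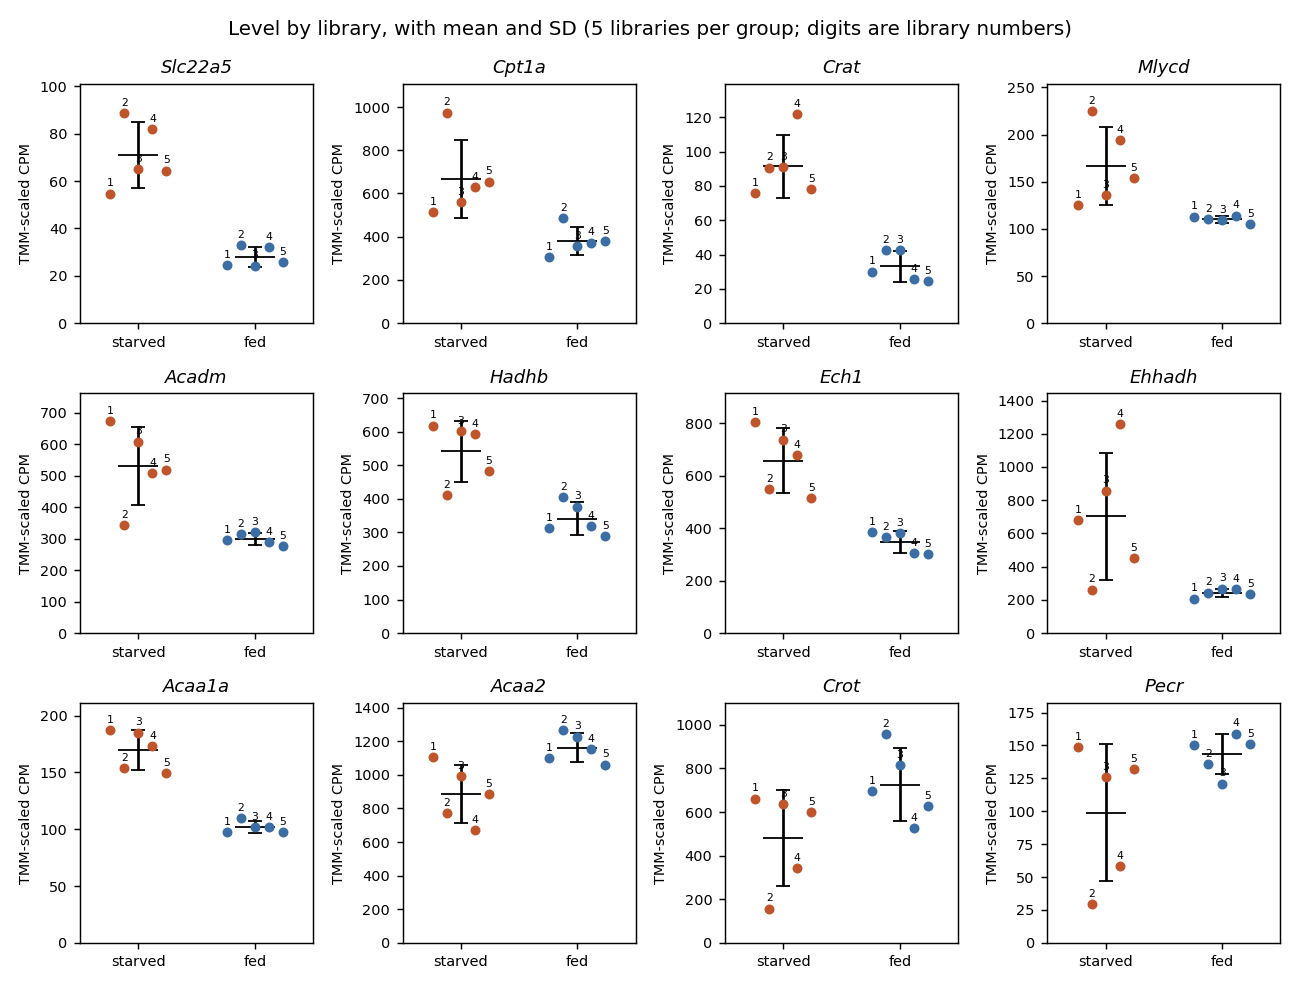
TMM-scaled CPM (vertical axis, from 0) of 12 genes in the 5 starved (left) and 5 fed (right) libraries, each point 1 mouse marked with its library number, with mean and SD as bars. Starved library 2 is the highest point for Slc22a5, Cpt1a and Mlycd and the lowest starved point for Acadm, Hadhb, Ehhadh, Crot and Pecr.

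Of the 6 acyl-CoA dehydrogenases, 4 rose and 0 fell (median 0.48). They take the first electrons from chains of different length. Acadm, which acts on medium chains, had 672, 343, 608, 509 and 519 CPM in starved libraries and 295, 314, 320, 289 and 276 CPM in fed libraries. All starved libraries were above all fed ones, with starved library 2 the closest. The log2 fold change was 0.83 ± 0.16 (adjusted p = 0.00224, edgeR). Acadvl, for very long chains, had 625, 604, 607, 710 and 571 CPM in starved libraries and 403, 460, 484, 431 and 413 CPM in fed libraries, without overlap (0.51 ± 0.10). Of its exon length, 42.9% is also exon of Dvl2 on the opposite strand, and the strand setting of the counting is not given in the sources used here. Acadl, for long chains, rose by 0.61 ± 0.11, with starved values from 128 to 184 CPM and fed values from 90.2 to 107 CPM.

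Acad11, a dehydrogenase that also carries a kinase-like domain, rose by 0.45 ± 0.12, but starved library 2, at 527 CPM, lay just under the highest fed library, at 534 CPM, and with library totals alone as scaling the call was lost (adjusted p = 0.0807, edgeR). Acads, for short chains, averaged 164 ± 11.9 CPM in starved and 164 ± 7.1 CPM in fed livers, a log2 fold change of 0.00 ± 0.09 (adjusted p = 0.989, edgeR). Acad10, a relative of Acad11, averaged 24.7 ± 2.36 CPM in starved and 20.6 ± 3.84 CPM in fed livers (0.26 ± 0.14, adjusted p = 0.15, edgeR), and 20.4% of its 50-base stretches recur in other genes, chiefly in Acad12.

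The steps after the first dehydrogenation did not move as a block. Of 5 genes of mitochondrial hydration, dehydrogenation and thiolysis, 1 rose and 1 fell (median 0.03, and -0.13 with library totals alone as scaling). Hadha and Hadhb encode the α and β subunits of the trifunctional protein, which carries the last 3 steps for long chains. Their genes stand head to head on chromosome 5 (mm10): Hadha spans 30118304 to 30155162 on the minus strand and Hadhb 30155248 to 30184593 on the plus strand. The whole stretch between them, 85 bases, is shown because both subunits are read outward from it. It is taken from RefSeq's promoter table (GRCm38.p6), chr5:30155163-30155247, plus strand, with the motif GGGCGG, found at 2 places, in capitals.
Between Hadha and Hadhb: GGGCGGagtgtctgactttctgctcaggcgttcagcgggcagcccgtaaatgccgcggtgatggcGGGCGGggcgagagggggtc
On either strand, GGGCGG occurs in 22.8% of stretches of the same length just upstream of gene starts.

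Hadhb had 619, 412, 603, 594 and 482 CPM in starved libraries and 312, 406, 377, 320 and 289 CPM in fed libraries. The groups did not overlap and Hadhb rose by 0.67 ± 0.15 (adjusted p = 0.00429, edgeR). Hadha had 390, 337, 429, 438 and 360 CPM in starved libraries and 308, 433, 381, 328 and 302 CPM in fed libraries. The groups overlapped and Hadha was not called (0.16 ± 0.13, adjusted p = 0.356, edgeR). The reads of Hadhb per read of Hadha numbered 1.59, 1.22, 1.40, 1.36 and 1.34 in starved libraries and 1.02, 0.938, 0.990, 0.974 and 0.956 in fed libraries. This ratio, which does not depend on how libraries are scaled, was higher in every starved than in every fed library, by 0.50 on the log2 scale (two-sided exact permutation p = 0.00794, the smallest 5 against 5 libraries can give; 0.0179 adjusted over 9 ratios). Of the 50-base stretches of Hadhb, 62.4% also occur elsewhere, mainly in the processed pseudogene Gm13910, so its count is uncertain.

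Acaa2, the mitochondrial ketoacyl-CoA thiolase, was the only one of the 38 genes that fell. It had 1105, 771, 992, 671 and 886 CPM in starved libraries and 1098, 1266, 1227, 1155 and 1060 CPM in fed libraries. Starved library 1 lay inside the fed range and starved libraries 2 and 4 were the lowest. The fall was -0.39 ± 0.14 with an adjusted p of 0.0481 in edgeR, close to the threshold, and leaving out starved libraries 2 and 4 ended the call (-0.20, adjusted p = 0.188, edgeR). Over its 19 alternatives the adjusted p of Acaa2 ran from 0.0147 to 0.188, and 13 of them lost the call. Hadh, the hydroxyacyl-CoA dehydrogenase for short chains, had 346, 139, 290, 171 and 270 CPM in starved libraries and 331, 328, 318, 333 and 341 CPM in fed libraries. The fed values hardly varied, and every starved library but number 1 was below them. Starved libraries 2 and 4 were the lowest, and there was no call (-0.44 ± 0.21, adjusted p = 0.122, edgeR). Leaving out starved library 1, Hadh was called lower (-0.60, adjusted p = 0.0369, edgeR), and leaving out starved libraries 2 and 4 its value was -0.11. Echs1, the enoyl-CoA hydratase for short chains, averaged 342 ± 51 CPM in starved and 336 ± 14.8 CPM in fed livers (0.03 ± 0.12).

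Auxiliary enzymes, here isomerases and reductases, act on unsaturated and branched acyl chains. Of 6 such genes 3 rose and 0 fell (median 0.32). With library totals alone as scaling 1 of them rose, and leaving out starved libraries 2 and 4, 5 did. Ech1, a dienoyl-CoA isomerase, had 806, 548, 738, 679 and 516 CPM in starved libraries and 384, 365, 380, 306 and 300 CPM in fed libraries. It did not overlap between groups and rose by 0.92 ± 0.15 (adjusted p = 0.000749, edgeR). Eci1, the mitochondrial enoyl-CoA isomerase, had 266, 112, 250, 206 and 169 CPM in starved libraries and 136, 127, 141, 126 and 119 CPM in fed libraries. Starved library 2 was below all fed libraries and the other 4 above all of them, and the rise of 0.63 ± 0.20 was lost in 6 of 19 alternatives. Decr2, the peroxisomal dienoyl-CoA reductase, rose by 0.33 ± 0.11 (374 ± 35.2 CPM in starved and 297 ± 25.5 CPM in fed livers), and this call was lost in 7 of 19.

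Decr1, the mitochondrial dienoyl-CoA reductase, averaged 358 ± 103 CPM in starved and 289 ± 26.7 CPM in fed livers (0.31 ± 0.19, adjusted p = 0.215, edgeR). Eci2, an isomerase found in peroxisomes, averaged 312 ± 48.4 CPM in starved and 263 ± 17.6 CPM in fed livers (0.24 ± 0.12, adjusted p = 0.132, edgeR). Both were called without starved library 2, and leaving out starved libraries 2 and 4 gave 0.52 for Decr1 and 0.39 for Eci2. Pecr, a peroxisomal enoyl-CoA reductase, had 149, 29.7, 126, 58.5 and 132 CPM in starved libraries and 150, 136, 121, 159 and 151 CPM in fed libraries. Starved libraries 1, 3 and 5 were within the fed range while 2 and 4 were far below it, and no change was called (-0.53 ± 0.35, adjusted p = 0.238, edgeR; -0.06 without those libraries).

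Electrons from the dehydrogenases pass to the flavoprotein subunits Etfa and Etfb and on to Etfdh, which feeds them to ubiquinone. Of these 3 genes 1 rose and 0 fell (median 0.32), and without starved libraries 2 and 4 all 3 rose (median 0.58). Etfdh had 459, 271, 459, 390 and 401 CPM in starved libraries and 239, 318, 273, 232 and 231 CPM in fed libraries, a rise of 0.62 ± 0.16 (adjusted p = 0.00946, edgeR). Its starved library 2 alone lay inside the fed range. Etfa averaged 224 ± 43.1 CPM in starved and 188 ± 10.6 CPM in fed livers, and Etfb 273 ± 76.9 CPM in starved and 218 ± 18.7 CPM in fed livers (adjusted p = 0.159 and 0.182, edgeR). Etfb shares 53.0% of its exon length with Gm45233 on the same strand, so its counts are uncertain.

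**Figure D3:**
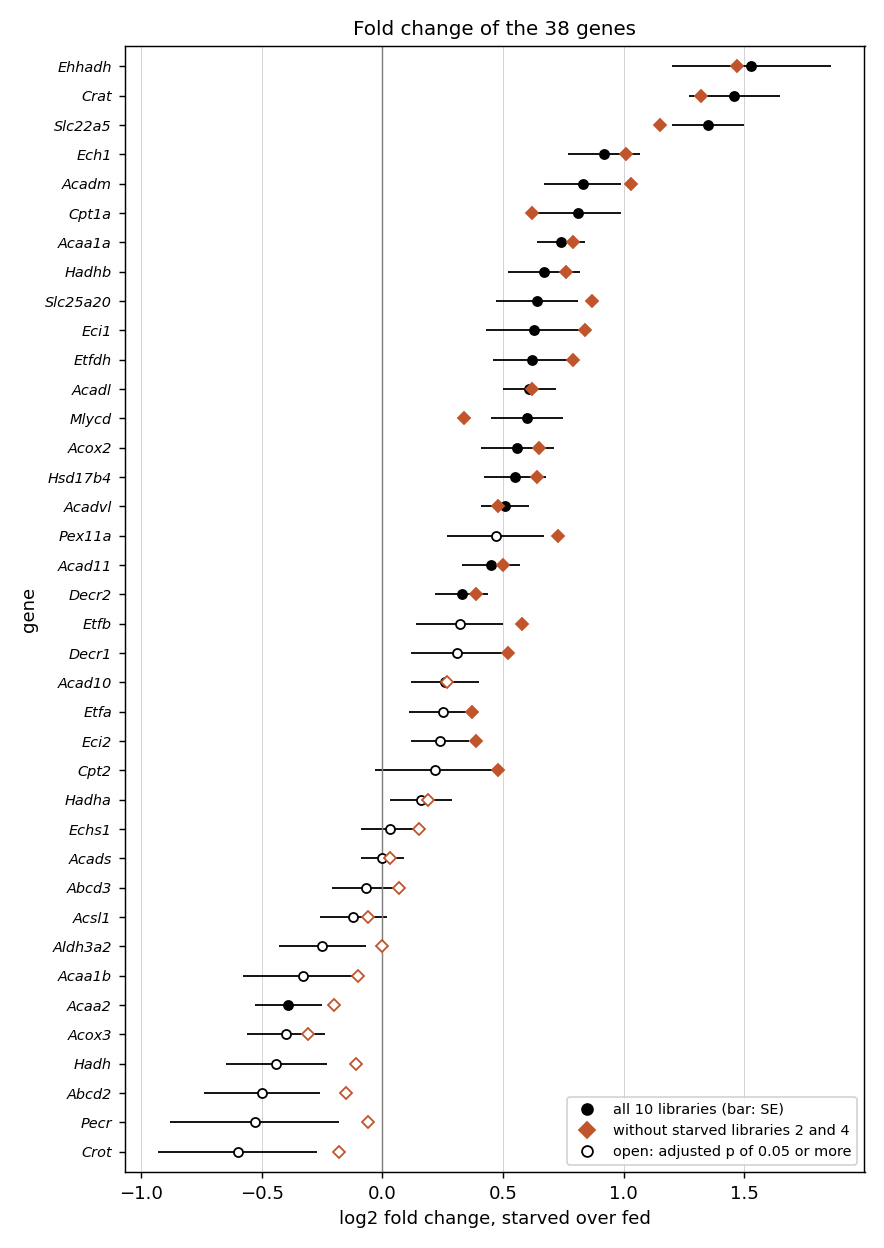
Log2 fold change of starved over fed (horizontal axis) for the 38 genes, ordered by size, from all 10 libraries (circles, bars are SE) and without starved libraries 2 and 4 (diamonds); filled symbols have an adjusted p under 0.05. Ehhadh, Crat and Slc22a5 lie above 1 in both, and the diamonds of Crot, Pecr, Abcd2 and Hadh are nearer to 0 than their circles.

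The remaining 11 genes belong to the peroxisomal group, which does not hold Decr2, Eci2 and Pecr, counted above with the auxiliary enzymes. Of these 11 genes 4 rose and 0 fell, and their median on the log2 scale was -0.07 (0.07 on leaving out starved libraries 2 and 4, when 5 rose). With library totals alone as scaling 4 rose and 1, Acox3, fell (-0.55, adjusted p = 0.0237, edgeR). Ehhadh, the bifunctional hydratase and dehydrogenase of the classical peroxisomal pathway, had 679, 262, 858, 1259 and 452 CPM in starved libraries and 207, 243, 268, 263 and 235 CPM in fed libraries. Starved library 2 lay in the fed range while the other 4 were well above it. Ehhadh rose by 1.53 ± 0.33 (adjusted p = 0.00408, edgeR) and by 1.47 without starved libraries 2 and 4. Hsd17b4, the other bifunctional enzyme, used for branched chains and bile acid precursors, had 493, 338, 496, 492 and 429 CPM in starved libraries and 264, 350, 315, 309 and 299 CPM in fed libraries (0.55 ± 0.13, adjusted p = 0.00684, edgeR). Reads of Ehhadh per read of Hsd17b4 ran from 0.775 to 2.56 in starved and from 0.694 to 0.851 in fed libraries. This ratio did not pass (difference 0.80 on the log2 scale, exact permutation p = 0.0397, adjusted p = 0.0595). It passed without starved library 2, its lowest starved value (1.01, adjusted p = 0.0102, exact permutation). Leaving out that value favours a rise, so no conclusion is drawn from this pass.

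Acaa1a and Acaa1b encode a pair of near-identical peroxisomal thiolases on chromosome 9 (mm10), Acaa1a at 119339676 to 119350299 and Acaa1b at 119148023 to 119157093. Acaa1a had 187, 154, 185, 173 and 149 CPM in starved libraries and 97.1, 110, 102, 102 and 97.3 CPM in fed libraries. Its groups did not overlap and it rose by 0.74 ± 0.10 (adjusted p = 0.000285, edgeR). Acaa1b had 350, 135, 411, 292 and 189 CPM in starved libraries and 334, 343, 333, 396 and 322 CPM in fed libraries. Starved libraries 2 and 5 were far below the fed range and no change was called (-0.33 ± 0.25, adjusted p = 0.317, edgeR). The reads of Acaa1b per read of Acaa1a numbered 1.87, 0.877, 2.22, 1.69 and 1.27 in starved libraries and 3.44, 3.12, 3.26, 3.88 and 3.31 in fed libraries, lower in every starved library (difference -1.17 on the log2 scale, exact permutation p = 0.00794, adjusted p = 0.0179). The transcripts share 35.1% of the 50-base stretches of Acaa1a with other genes and 46.2% of those of Acaa1b, most of them with each other, so both counts are uncertain.

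Acox2, the oxidase that starts the breakdown of branched chains and bile acid precursors, rose by 0.56 ± 0.15 (243 ± 33 CPM in starved and 164 ± 30.4 CPM in fed livers, adjusted p = 0.0105, edgeR). Acox3, another oxidase of branched chains, was the scarcest of the 38, averaging 10.9 ± 2.23 CPM in starved and 14.4 ± 2.06 CPM in fed livers, with no call (-0.40 ± 0.16, adjusted p = 0.0653, edgeR). Crot, which puts medium chains leaving the peroxisome onto carnitine, had 662, 157, 635, 343 and 599 CPM in starved libraries and 696, 959, 815, 527 and 627 CPM in fed libraries. Its spread was wide in both groups and it was not called (-0.60 ± 0.33, adjusted p = 0.173, edgeR). The value was -0.36 leaving out starved library 2 and -0.18 leaving out 2 and 4. Pex11a, which takes part in peroxisome division, averaged 22.8 ± 7.2 CPM in starved and 16.5 ± 1.33 CPM in fed livers (0.47 ± 0.20, adjusted p = 0.0794, edgeR) and was called without starved libraries 2 and 4 (0.73).

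With all 10 libraries, the membrane carriers of acyl chains into the peroxisome were not called. Abcd2, a transporter of very long chains, had 150, 56.4, 109, 67.6 and 120 CPM in starved libraries and 164, 156, 144, 123 and 126 CPM in fed libraries (-0.50 ± 0.24, adjusted p = 0.11, edgeR). Leaving out starved library 1, Abcd2 was called lower (-0.69, adjusted p = 0.0285, edgeR), and leaving out starved libraries 2 and 4 its value was -0.15. Abcd3, its relative for branched and dicarboxylic chains, averaged 297 ± 51.2 CPM in starved and 311 ± 38.3 CPM in fed livers (-0.07 ± 0.14). Aldh3a2, which oxidises fatty aldehydes, averaged 392 ± 101 CPM in starved and 465 ± 40 CPM in fed livers (-0.25 ± 0.18). A p that misses the threshold does not show that these genes were equal in both states.

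Several enzymes exist in a peroxisomal and a mitochondrial form, and their counts were compared within each library. The ratio of Acaa1a to Acaa2 was 0.17, 0.2, 0.186, 0.257 and 0.168 in starved libraries and 0.0884, 0.0868, 0.0833, 0.0885 and 0.0918 in fed libraries. It was higher in every starved library, by 1.14 on the log2 scale (exact permutation p = 0.00794, adjusted p = 0.0179). This ratio leaves out Acaa1b, the more abundant peroxisomal thiolase, which was not called. Acaa1b averaged 275 CPM in starved and 346 CPM in fed livers, and Acaa1a 170 CPM in starved and 102 CPM in fed. Both counts are uncertain, and the 2 peroxisomal genes together were not tested against Acaa2. Reads of Ehhadh per read of Hadha numbered 1.74, 0.778, 2, 2.88 and 1.26 in starved libraries and 0.674, 0.561, 0.705, 0.801 and 0.778 in fed libraries (difference 1.18, exact permutation p = 0.0238, adjusted p = 0.0429), with only starved library 2 in the fed range. Leaving out fed library 1, 2 or 3 ended the call (exact permutation, adjusted p = 0.0571 in each case). The ratio of the carnitine transferases Crot and Cpt2 was lower in every starved library, with 6.82, 4.38, 6.27, 3.73 and 5.03 in starved libraries and 10.6, 9.96, 10.4, 7.3 and 8.87 in fed libraries (difference -0.87, exact permutation p = 0.00794, adjusted p = 0.0179).

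The reductases and isomerases gave no call. Decr2 per Decr1 ran from 0.883 to 1.65 in starved and from 0.987 to 1.05 in fed libraries (difference 0.07, exact permutation p = 0.849), and Eci2 per Eci1 from 1.31 to 2.17 in starved and from 1.87 to 2.19 in fed libraries (difference -0.33, exact permutation p = 0.0635, adjusted p = 0.0816). The second passed without starved library 2, its highest starved value (-0.44, adjusted p = 0.0102, exact permutation). Leaving out that value favours a fall, so no conclusion is drawn from this pass. Etfb per Etfa, 2 subunits of 1 protein, ran from 0.994 to 1.39 in starved and from 1.08 to 1.19 in fed libraries (difference 0.05, exact permutation p = 0.675). Starved libraries 2 and 4 were the lowest for this ratio, so leaving them out favours a rise. Without them it was higher by 0.21 (adjusted p = 0.0201, exact permutation), where 3 against 5 libraries give no p under 0.0179. No conclusion is drawn from that call, and the count of Etfb is uncertain.

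**Figure D4:**
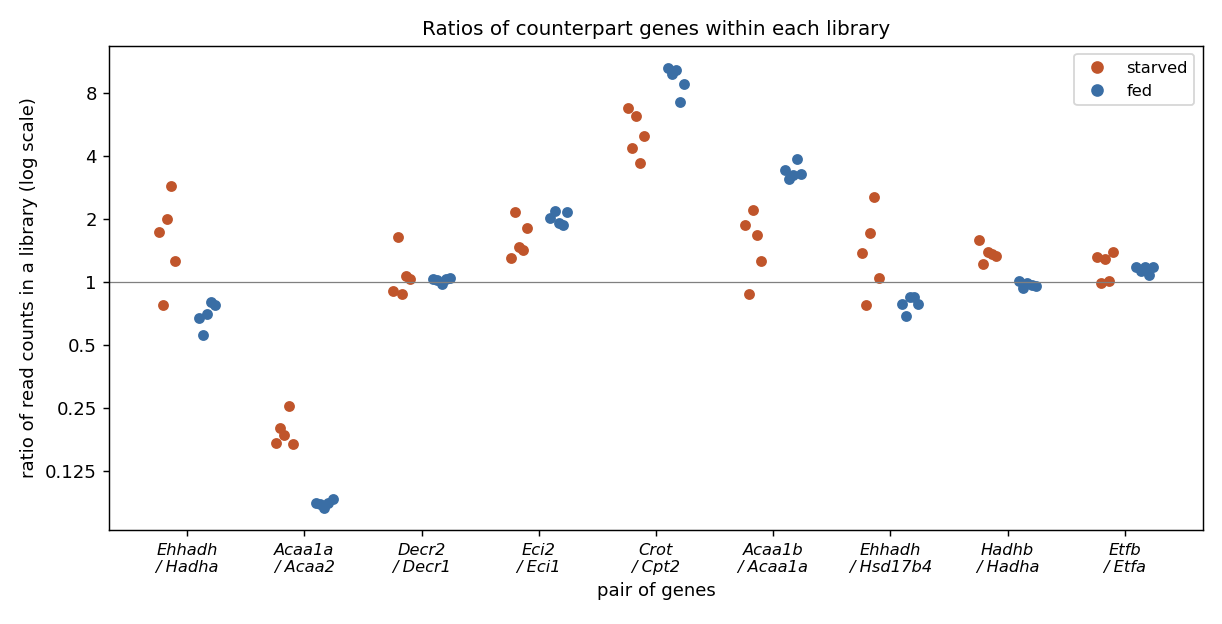
Ratio of read counts of paired genes within each library (vertical axis, log scale), with 5 starved (left of each pair) and 5 fed (right) libraries as points. The groups do not overlap for Acaa1a / Acaa2, Crot / Cpt2, Acaa1b / Acaa1a and Hadhb / Hadha, and the starved points spread more widely than the fed points.

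Per kilobase of the longest coding transcript, a rough scale for comparing genes, Acaa2 had the highest mean in both groups, with 584 CPM per kb in starved and 765 in fed livers. Genes that share sequence can lose reads. How many were lost was not tested, so the places of Etfb (67.3% of its 50-base stretches shared) and Hadhb (62.4%) are uncertain. Ech1 followed with 519 in starved and 274 in fed livers, and Etfb came next with 306 in starved and 244 in fed livers. Ehhadh moved most in this order, with place 7 by its starved mean and place 27 by its fed mean, at 235 CPM per kb in starved and 81.5 in fed livers. Crot ranked 18 by its starved mean and 4 by its fed mean, and Pecr 29 by its starved and 17 by its fed mean. The same genes closed the list in both groups, with Acox3 (2.74 CPM per kb in starved, 3.62 in fed), Acad10 (6.46 in starved, 5.38 in fed) and Pex11a at the end. Differences between neighbouring places were not tested.

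**Figure D5:**
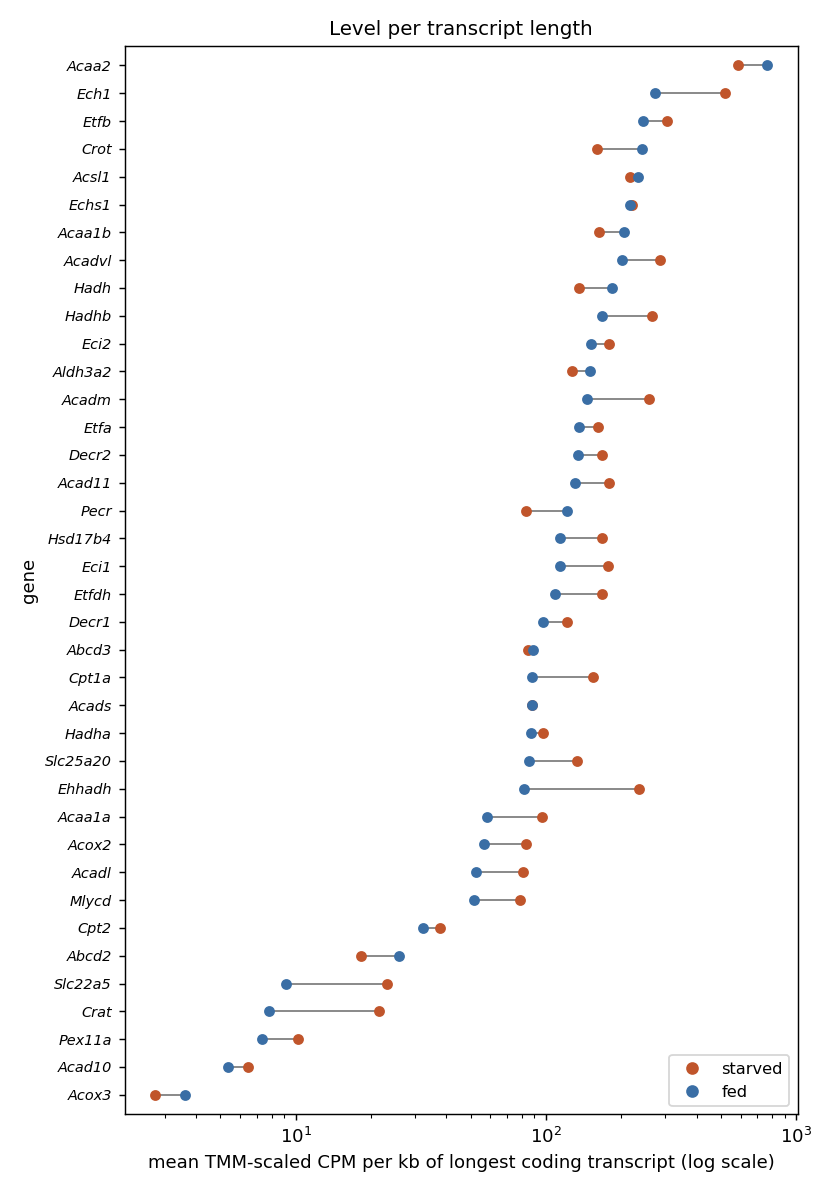
Mean level of the 38 genes per kilobase of longest coding transcript (horizontal axis, log scale; TMM-scaled CPM per kb), ordered by the fed mean, with starved and fed means joined by a line. Acaa2 is highest in both groups, and Ehhadh has the longest line towards the starved side.

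The 38 genes varied more among starved than among fed mice. The coefficient of variation was larger in the starved group for 32 genes and in the fed group for 6, with a median of 19.6% in starved and 10% in fed livers, beside 23.3% in starved and 11.8% in fed livers over all genes tested. Starved library 2 was the lowest of all 10 libraries for 14 genes, among them Crot, Pecr, Cpt2, Hadh and Abcd3, and the highest of all 10 for 3, namely Slc22a5, Cpt1a and Mlycd. Its median difference from the fed mean over the 38 genes was 0.03 on the log2 scale, where starved libraries 1, 3, 4 and 5 had 0.48, 0.47, 0.33 and 0.38. Within the starved group it was the lowest library for 25 of the 38. Together the 38 genes took 0.857% of gene reads in starved library 2, 1.16% to 1.39% in the other starved libraries and 1.07% to 1.20% in fed libraries.

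PPARA binds as a dimer with RXR to direct repeats of the element AGGTCA with 1 base between the copies (DR1). The promoters of the 38 genes were searched for this repeat with at most 2 mismatches on either strand. RefSeq's table (GRCm38.p6) holds 36 promoter windows for 33 of the genes, each from 250 bases before to 50 after a gene start. A match was present in 4 windows, or 11.1%, where 3.86% of all 32851 windows had one. With 3 mismatches allowed the shares were 27.8% and 24.6%, so the difference rests on 4 windows and on the number of mismatches allowed. A single AGGTCA was present in 11.1% of the windows of the 38 genes and 16.3% of all windows. The 4 matches are shown because this repeat is the known form of a PPARA site, with capitals for letters equal to the repeat.
Slc25a20, chr9:108662142-108662154, plus strand, 7 bases after the start: AGGTgAaAGGTCg
Acox2, chr14:8258818-8258830, minus strand, 10 bases after the start: AGGaCAgAGGTgA
Etfa, chr9:55512308-55512320, plus strand, 77 bases before the start: AGGgCAaAGGTaA
Echs1, chr7:140116492-140116504, minus strand, 83 bases before the start: AGGTCAcgGGTCc
Of these 4 genes Slc25a20 and Acox2 rose, and Etfa and Echs1 were not called. The windows of Ehhadh, Cpt1a, Crot and Slc22a5 held no match, which says only that these letters are not in these windows.

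Other genes of the pathway were read from whole lists grouped by function. Among 8 genes of malonyl-CoA control 1 rose and 1 fell: Prkag1, a subunit of the energy sensor AMPK (0.47 ± 0.14, lost with library totals alone), and Acaca, the carboxylase that makes malonyl-CoA (50.5 ± 10.1 CPM in starved and 175 ± 28.1 CPM in fed livers, -1.79 ± 0.16). Of the 7 other acyl-CoA synthetases tested 2 rose and 5 fell (median -1.24). The largest rises were those of Acsl4, which prefers arachidonate (0.91 ± 0.28, and 0.30 without starved libraries 2 and 4), and Acsm3 (0.43 ± 0.14). The largest falls were those of Acsm2 (-1.93 ± 0.50), which was near the detection floor, and Acsl3 (-1.92 ± 0.17). Among 9 further mitochondrial genes tested 3 rose and 2 fell. They included Hsd17b10, a dehydrogenase of branched short chains that is also part of mitochondrial RNase P (366 ± 109 CPM in starved and 105 ± 9.56 CPM in fed livers, 1.79 ± 0.20), and Lyrm5, a regulator of the electron transfer flavoprotein (0.78 ± 0.15), which rose. Acad9, an assembly factor of respiratory complex I (-0.71 ± 0.22), and Acadsb, of isoleucine breakdown (-0.45 ± 0.14), fell.

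Among 13 other peroxisomal enzymes and membrane proteins tested 2 rose and 3 fell (median -0.17). Abcd4, a transporter of vitamin B12 in lysosomes despite its family name (1.57 ± 0.24), and Phyh, of phytanic acid breakdown (0.34 ± 0.11), rose. Nudt7, a peroxisomal hydrolase of coenzyme A (62 ± 34.9 CPM in starved and 236 ± 27.2 CPM in fed livers, -1.93 ± 0.37), and Cat, the catalase that removes the hydrogen peroxide made by peroxisomal oxidases (-0.96 ± 0.24), fell, and the groups overlapped in neither. Of 15 peroxins, which build peroxisomes, 6 rose and 0 fell (median 0.24), with Pex16 (0.95 ± 0.14) and Pex3 (0.70 ± 0.10), both of membrane assembly, leading. With library totals alone as scaling 2 rose and 1 fell, and leaving out starved libraries 2 and 4, 8 rose and 1 fell. Among 7 regulators 3 rose and 1 fell (median 0.51). Leaving out starved libraries 2 and 4, 2 rose and 1 fell (median 0.13), as Hnf4a, a hepatocyte transcription factor, was then not called (0.51 with all libraries, 0.20 without those, adjusted p = 0.042 and 0.172, edgeR). Ppargc1a, a coactivator of oxidative genes (2.18 ± 0.16), and Esrra, a nuclear receptor that works with it (0.94 ± 0.23, and 0.50 without starved libraries 2 and 4), rose. Ppara itself fell, to 188, 102, 193, 125 and 238 CPM in starved libraries, against 328, 447, 365, 439 and 364 CPM in fed libraries (-1.20 ± 0.21, adjusted p = 0.00131, edgeR).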

How the data were processed

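RNA was measured by RNA-seq in 5 starved and 5 fed livers, 1 library per mouse, with a stranded total RNA kit, per the labels' protocols. The deposited values are raw whole-number counts of reads for each gene symbol. Build mm10, HTSeq, Bowtie2 2.0.0, TopHat2 2.0.0, CASAVA 1.8.2 and edgeR 3.6.4 are listed, per the submitters' processing notes. Neither annotation nor strand setting is stated there. HTSeq's tallies of unassigned reads, 58.2% to 68.8% of all tallied reads, mostly reads with several places (38.6% to 48.4%), stayed out of library sizes and tests, so near-identical genes lose reads.

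From these counts, edgeR 4.0.16 in R 4.3.3 compared starved with fed livers (filterByExpr, TMM scaling, quasi-likelihood test, Benjamini-Hochberg over 12796 genes). A gene was called, and "rose" or "fell" written, at an adjusted p under 0.05; levels are TMM-scaled CPM. Ratios of 2 genes in a library were compared by two-sided exact permutation, adjusted over 9 ratios. The fit was tested on simulated data. Same-numbered libraries were not taken as pairs. Alternatives were other scalings, DESeq2 1.42.0, limma-voom 3.58.1, other filters, a replicate block and left-out libraries. A stricter threshold of 0.01 was also applied, but it is not among the alternatives counted for each gene. All 38 genes are named; of each other list, up to 2 called genes with the largest rise and 2 with the largest fall at 1 CPM or more. The members and lists were chosen with earlier results of these data known. Positions are GENCODE's for GRCm38; shared 50-base stretches were counted in GENCODE transcripts on either strand. Protein sequences were not used here.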

Additional observations from a re-analysis of the deposited data

Results flagged for a closer look

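Each gene or ratio was tested within each group of 5 libraries. In 5 of 94 such groups, 1 value lay apart from the other 4 by more than Dixon's critical share of the group's range. Chance gives about 1 in 20 groups, which is close to this share. Abcd3 stood at 207 CPM in starved library 2, below the next starved library at 308.6 CPM. Echs1 was high in fed library 1 at 362 CPM (next 335.3 CPM), and Acaa1b high in fed library 4 at 396 CPM (next 342.6 CPM). Acadl was low in fed library 4 at 90.2 CPM (next 102.2 CPM). The ratio of Decr2 to Decr1 was low in fed library 3 at 0.987 (next 1.03), a small gap in a group that varied little.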

How the results depend on the processing

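Over 19 alternatives for each of the 38 genes, 678 of 722 values kept their call or lack of one. Of the other values, 27 lost a call, 17 gained one, and 0 calls changed direction. Across these 19 alternatives 25 genes stayed on their side of the threshold, 15 of them rises. The stricter threshold of 0.01 is not among the 19. At that threshold 13 genes rose and 6 calls were lost. Uncalled values near 0 changed sign, as for Echs1 (-0.13 with library totals alone) and Abcd3 (0.07 without starved libraries 2 and 4). The count of genes that fell, 1, was 0 with DESeq2 size factors, upper-quartile factors, no low-count filter, a replicate block, a threshold of 0.01 or without starved libraries 2 and 4, 2 with library totals alone, and 0 to 3 leaving out 1 library. The count that rose was 13 to 24. Over all genes, 1490 were higher with library totals alone, where the median over all genes was -0.15, moving the share of calls that were higher to 29.9%, against 48.2%; at 0.01, 1272 were higher and 1526 lower. The causes were not tested. Correlations of deviations ran from -0.057 to 0.234 for same-numbered libraries, highest for number 1, and from -0.149 to 0.214 for other pairs. The replicate block left 17 rises. In the ratios a replicate block cannot pass, since 5 pairs give no p under 0.0625: Ehhadh/Hadha (1.18), Acaa1a/Acaa2 (1.14), Crot/Cpt2 (-0.87), Acaa1b/Acaa1a (-1.17) and Hadhb/Hadha (0.50) lost their calls. Leaving out 1 library, Ehhadh/Hadha ran from 0.96 to 1.43, Eci2/Eci1 from -0.44 to -0.26 and Ehhadh/Hsd17b4 from 0.58 to 1.01. Without starved libraries 2 and 4, Eci2/Eci1 (-0.42), Ehhadh/Hsd17b4 (0.78) and Etfb/Etfa (0.21) gained a call. For Etfb/Etfa those 2 libraries were the lowest starved values, so no conclusion is drawn from its call. For Eci2/Eci1 and Ehhadh/Hsd17b4 starved library 2 was the starved value most against the difference, so none is drawn from their calls either. Acox3, Pex11a and Acad10 had the fewest reads of the 38 genes, and how far depth limits them was not tested.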
